A study of Mus musculus with 9 samples.

Results

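The genes of MHC class II antigen presentation were examined in heart RNA of control mice, of mice with streptozotocin-induced diabetic cardiomyopathy and of diabetic mice given spermine. The 8 genes were taken by symbol from the matrix of gene counts, 8 of its 22851 genes, and all 8 passed the filter on low counts in each comparison. They are H2-Aa, H2-Ab1 and H2-Eb1, which encode chains of the classical class II molecules, H2-DMa and H2-DMb1, which encode the chains of the peptide-loading molecule H2-M, Cd74, the invariant chain, Ciita, the class II transactivator, and Ctss, the lysosomal protease cathepsin S.

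Class II molecules are dimers of an alpha and a beta chain that carry peptides from endocytosed proteins to the surface of antigen-presenting cells, where CD4+ T cells read them. In the endoplasmic reticulum the dimer binds the invariant chain, which fills the groove and routes it to endosomes. There cathepsin S trims the invariant chain to a short remnant and H2-M exchanges the remnant for peptide. CIITA does not bind DNA itself but joins a complex on the X and Y boxes of class II promoters, and its own transcription rises with interferon gamma. In the heart, resident and recruited macrophages, dendritic cells and B cells are the main carriers of these molecules.

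The libraries were prepared from the myocardium of C57BL/6 mice, 3 for each of the groups CK, DCM and SPM. The animals were males of 6 to 8 weeks at the start per the study's methods. CK mice received citrate buffer without drug. DCM mice received 1 intraperitoneal injection of streptozotocin, which destroys pancreatic beta cells, and were kept for 12 weeks. SPM mice received the same streptozotocin and in addition spermine, a polyamine, at 1 mg/kg, daily for 2 weeks before streptozotocin and every other day for the 12 weeks after it. Spermine without streptozotocin was not analysed here. SPM and DCM differ by spermine given both before and after streptozotocin, and effects of these periods cannot be told apart. The methods describe RNA of 3 mice per group in one place and pools of 6 hearts in another, and p-values measure the spread between the deposited libraries, whichever of these they hold.

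Total counts per library ran from 29901300 to 39718680, and mitochondrial genes took 13.7% to 16.2% of them in CK, 15.5% to 18.9% in DCM and, in SPM, 21.0% to 21.1%. The tissue label names the heart, whereas the deposited extraction protocol speaks of retinas. The 6 cardiomyocyte markers with a row, among them Myh6, the alpha myosin heavy chain, summed to 33584 to 45393 normalised CPM (counts scaled to library totals by TMM), while the 6 retina markers with a row summed to 0.422 to 1.67. SPM replicate 2 stood apart from the other libraries in how it lay within its group. It fell between SPM replicates 1 and 3 for 66.3% of genes, against 15.7% to 39.7% for the other 8 libraries within theirs, and of 2656 genes at 0 in SPM replicates 1 and 3 it had a count in 30, or 1.13%, against 15.6% to 35.0% elsewhere. Of the 8 class II presentation genes, 6 lay between the other SPM libraries in it, but so did 8 in CK replicate 2 and 6 in DCM replicate 3 within their groups. Whether SPM replicate 2 is independent of SPM replicates 1 and 3 could not be settled. The fold changes of the 8 genes in SPM are therefore given with and without SPM replicate 2. FPKM levels, ratios, summed levels and profiles are given with all SPM libraries only.

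Of the 8 genes, 5 lie within 197 kb on chromosome 17 of GRCm38, by the GENCODE M21 annotation. H2-DMa spans chr17:34119541-34139101 on the plus strand, H2-DMb1 chr17:34153072-34160230 (plus), H2-Ab1 chr17:34257689-34269419 (plus), H2-Aa chr17:34282744-34287823 (minus) and H2-Eb1 chr17:34305867-34316674 (plus). Ciita lies at chr16:10480059-10528418 and Ctss at chr3:95526786-95556403, both on the plus strand, and Cd74 is on yet another chromosome. H2-DMa overlaps Brd2 and Ciita overlaps Dexi on the opposite strand, H2-Eb1 overlaps the antisense gene Gm20513, and H2-DMb1 has the near-identical copy H2-DMb2. Whether reads were counted by strand is not given in the sources used here, so reads of these overlapping genes may be shared.

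RefSeq promoter windows on GRCm38.p6 were at hand for 5 of the 8 genes, and H2-Ab1, Cd74 and Ciita had none. The stretches below, of 2 classical chains, are shown because they hold the core of the Y box, one of the boxes named above. Capitals mark TGATTGG, the core of the Y box, and ACNGATG, letters from the end of the X1 element of the X box, all in the direction of the gene.
H2-Aa, chr17:34287862-34287918, minus strand: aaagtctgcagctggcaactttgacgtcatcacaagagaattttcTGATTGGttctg
H2-Eb1, chr17:34305761-34305817, plus strand: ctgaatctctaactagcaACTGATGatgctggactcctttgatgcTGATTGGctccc
The Y box core began 50 bases before the RefSeq start in H2-Aa, 61 in H2-Eb1 and 63 in H2-DMb1. The X1 letters stood 88 bases before the start in H2-Eb1 and 91 in H2-DMb1, while H2-Aa matched them only on the other strand at 232 bases. The RefSeq start of H2-DMb1 lies downstream of its GENCODE start given above, so that its matches fall in the first exon of the GENCODE gene. Within the 250 bases before a start, TGATTGG on either strand was found in 7.23% of 32851 windows and ACNGATG in 8.31%. The X1 letters followed by the Y core after 10 to 30 bases on the gene strand were found in 5 windows, those of H2-Eb1, H2-Eb2, H2-DMb1, H2-DMb2 and BC051142, or 0.0152% of all. The window of H2-DMa matched none of the searched letters.

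The promoter of Ctss is shown because Ctss followed a different course from the other 7 genes. Capitals mark GAAA, any 2 bases and GAAA again, the core of the interferon-stimulated response element, which is bound by interferon regulatory factors.
Ctss, chr3:95526753-95526785, plus strand: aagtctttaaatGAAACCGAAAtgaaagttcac
The match began 21 bases before the start, and 2.98% of all windows held these letters on either strand. No Y box core was found in the Ctss window, and ACNGATG was found at 206 bases before the start. These matches describe letters, not bound sites, and the motifs were chosen with the sequences in view.

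In DCM compared to CK, all 8 genes were downregulated. Levels in DCM were 29.8% to 58.9% of those in CK, and no DCM library reached the lowest CK library for any of the 8. A gene was called changed at an adjusted p below 0.05, by the quasi-likelihood test of edgeR after Benjamini-Hochberg adjustment over all genes, and a fold change of at least 1.5. By that rule 2.31% of the 14402 genes tested were called lower in DCM and 2.03% higher, and the libraries did not overlap, with DCM lower, for 14.6%. The median log2 fold change of the 8 genes was -1.42, beside 0.00 over all genes (-0.00248).

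The classical alpha chain H2-Aa stood at 209, 172 and 156 normalised CPM in CK replicates 1 to 3 and at 89.8, 51.6 and 53.3 in DCM. All DCM libraries lay below all CK libraries, with DCM replicate 1 the highest of its group. The log2 fold change of H2-Aa was -1.46 ± 0.18 (SE, adjusted p = 3.27e-04). The beta chain H2-Ab1 stood at 237.7, 175 and 158.5 in CK and at 90.5, 58.2 and 52.4 in DCM, with the same order of groups and a log2 fold change of -1.51 ± 0.19 (adjusted p = 3.42e-04). The other beta chain, H2-Eb1, measured 205, 164 and 150 in CK and 93.0, 51.5 and 54.2 in DCM. Again no library crossed between the groups, and the log2 fold change of H2-Eb1 was -1.39 ± 0.19 (adjusted p = 6.39e-04).

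The invariant chain Cd74 (chr18:60803848-60812652, plus strand), the most abundant of the 8, stood at 428, 345 and 296 normalised CPM in CK and at 182, 114 and 118 in DCM. Its log2 fold change of -1.37 ± 0.17 (adjusted p = 3.27e-04) was close to those of the classical chains. H2-DMa measured 18.6, 14.3 and 12.5 in CK and 5.42, 3.97 and 5.43 in DCM, a log2 fold change of -1.61 ± 0.17 (adjusted p = 1.36e-04). Its partner H2-DMb1 measured 16.4, 12.1 and 10.4 in CK and 7.62, 4.07 and 4.67 in DCM, a log2 fold change of -1.24 ± 0.23 (adjusted p = 4.61e-03). For both chains of H2-M every DCM library lay below every CK library. Together, Cd74 and the 5 class II chains took 0.0806% to 0.117% of a CK library and 0.0274% to 0.0467% of a DCM library.

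Ciita was measured with few reads, 50, 35 and 29 counts in CK and 23, 6 and 9 in DCM, which correspond to 1.59, 0.977 and 0.942 against 0.580, 0.203 and 0.264 normalised CPM. Ciita passed the filter on low counts in this comparison through its CK libraries, the group where it was higher. The groups did not overlap, and the log2 fold change was -1.70 ± 0.49 (adjusted p = 0.0466). This call rested on single libraries. It was lost without CK replicate 1 (log2 fold change -1.42, adjusted p = 0.154), CK replicate 2 (-1.82, 0.0919), CK replicate 3 (-1.84, 0.0655), DCM replicate 2 (-1.45, 0.153) or DCM replicate 3 (-1.53, 0.153), with limma on the FPKM values (-0.95, 0.0727), and a minimum of 1 CPM removed the gene from the test. The direction was lower in DCM under each of these.

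Ctss showed the smallest change of the 8. It stood at 41.4, 37.7 and 34.7 normalised CPM in CK and at 26.6, 20.9 and 19.5 in DCM, with no overlap, and its log2 fold change was -0.76 ± 0.12 (adjusted p = 1.39e-03). For Ctss and the 6 class II genes other than Ciita, the call was kept under each of the 16 alternatives tried. These include the removal of each of the 6 libraries, and also the looser fold-change limits, under which a call cannot be lost. Ranked from the largest fall among 14402 genes, Ciita, with the limits given above, was 68th, H2-DMa 76th and H2-Ab1 100th. H2-Aa followed at 118, H2-Eb1 at 147, Cd74 at 156, H2-DMb1 at 203 and Ctss at 641. Within CK, replicate 1 was the highest and replicate 3 the lowest library for all 8 genes.

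**Figure D1:**
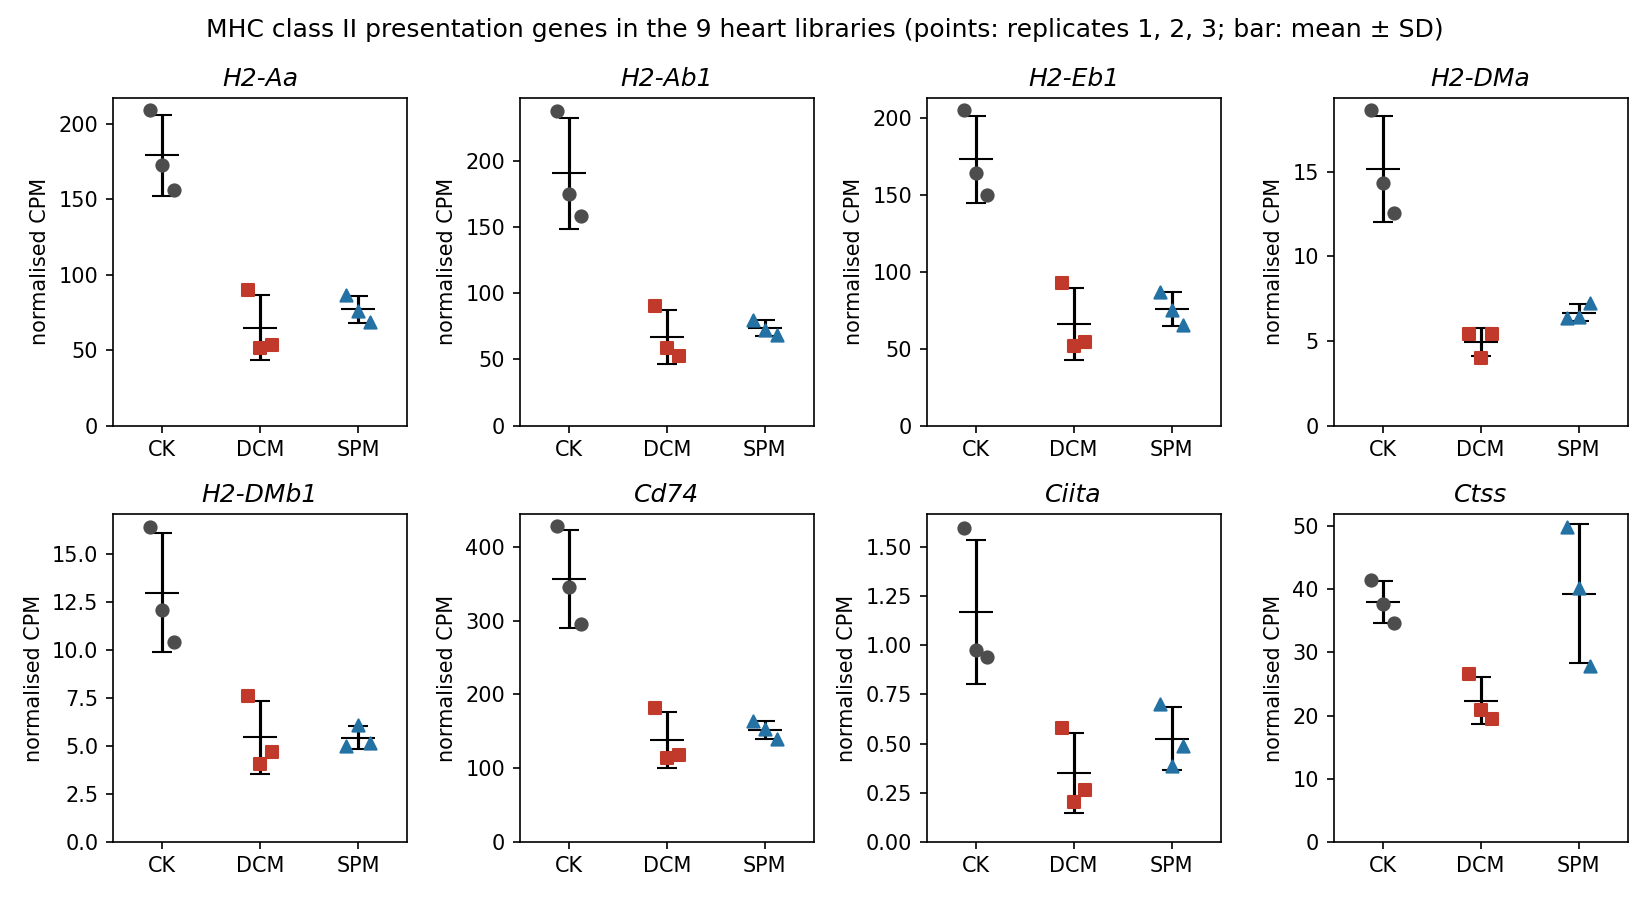
Normalised CPM (counts scaled to TMM-adjusted library totals, y axis from 0, one scale per panel) of the 8 class II presentation genes in the CK, DCM and SPM libraries, with replicates 1 to 3 as points from left to right and the mean ± SD as bars. All DCM points lie below all CK points in every panel. The SPM points overlap those of DCM except for Ctss, at 27.9 to 49.8 in SPM, and H2-DMa, at 6.36 to 7.26. For these genes all SPM points lie above all DCM points.

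The comparison of SPM with DCM asked whether these genes differed between diabetic mice with and without spermine. It shares the DCM libraries with the comparison above. Only Ctss was called, higher in SPM, while 2.70% of the 14493 genes tested were called higher and 0.890% lower. The 8 genes had a median log2 fold change of 0.23, beside 0.01 over all genes (0.00571). The libraries of SPM and DCM did not overlap for 2 of the 8 genes, Ctss and H2-DMa, both higher in SPM, and 19.1% of all genes were higher in SPM without overlap.

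Ctss stood at 49.8, 40.2 and 27.9 normalised CPM in SPM replicates 1 to 3, all above the DCM libraries, whose highest was 26.6. SPM replicates 1 and 3 spanned a wide range, and the lowest was close to DCM replicate 1. The log2 fold change of Ctss was 0.82 ± 0.19 (adjusted p = 0.0204, edgeR's quasi-likelihood test). The call was lost without SPM replicate 2 (0.81, adjusted p = 0.0629), DCM replicate 2 (0.78, 0.101) or DCM replicate 3 (0.72, 0.0762), and after correction for GC content (0.68, 0.0655). In this comparison the fold changes of all genes ran against GC content, with a Spearman correlation of -0.50 across 14484 genes, and Ctss has the lowest GC content of the 8 at 46.0%. The part of GC content in the change of Ctss beyond that correction was not tested.

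The classical chains remained at low levels in SPM. H2-Aa measured 86.6, 76.0 and 68.7 normalised CPM, H2-Ab1 79.99, 72.3 and 68.1, and H2-Eb1 87.2, 75.0 and 65.5. In each of the 3 genes the SPM libraries lay within the range of the DCM libraries. The log2 fold change to DCM was 0.25 for H2-Aa (95% interval -0.11 to 0.61), 0.14 for H2-Ab1 (-0.19 to 0.47) and 0.20 for H2-Eb1 (-0.18 to 0.59). These intervals reach up to 0.61 on the log2 scale and do not show that the groups were alike. The overlap rested on DCM replicate 1, and for these 3 genes and Cd74 every SPM library lay above DCM replicates 2 and 3. Without DCM replicate 1 the log2 fold change was 0.55 for H2-Aa (adjusted p = 0.0411), 0.41 for H2-Ab1 (0.0509), 0.52 for H2-Eb1 (0.0509) and 0.38 for Cd74 (0.0490), all under the fold-change limit, and without DCM replicate 3 it was 0.12, -0.021, 0.068 and 0.035.

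Cd74 stood at 163, 153 and 139 normalised CPM in SPM, also inside the DCM range, with a log2 fold change of 0.14 (95% interval -0.16 to 0.44). H2-DMa measured 6.36, 6.42 and 7.26, above the highest DCM library at 5.43, and its log2 fold change of 0.44 ± 0.16 did not pass the adjusted threshold (adjusted p = 0.0795). H2-DMb1 measured 4.98, 6.10 and 5.17, inside the DCM range, with a log2 fold change of -0.01 (95% interval -0.45 to 0.43). The sign for H2-DMb1 turned under several alternatives. Ciita had 23, 12 and 15 counts in SPM, or 0.703, 0.385 and 0.488 normalised CPM, which overlapped DCM, and a log2 fold change of 0.56 with a wide 95% interval of -0.43 to 1.55. Without SPM replicate 2, none of the 8 genes was called, and the log2 fold changes were 0.27 for H2-Aa, 0.15 for H2-Ab1, 0.21 for H2-Eb1, 0.14 for Cd74, 0.47 for H2-DMa, -0.10 for H2-DMb1 and 0.75 for Ciita.

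Set against CK, SPM hearts had H2-Aa, H2-Ab1, H2-Eb1, H2-DMa, H2-DMb1 and Cd74 downregulated, 6 of the 8, beside 4.12% of 14574 genes called lower and 5.08% called higher. This comparison shares its CK libraries with that of DCM and CK. For these 6 genes SPM stood at 38.6% to 44.04% of the CK level, and every SPM library lay below every CK library, as for 23.4% of all genes. Their log2 fold changes were -1.21 for H2-Aa, -1.37 for H2-Ab1, -1.19 for H2-Eb1, -1.18 for H2-DMa, -1.26 for H2-DMb1 and -1.23 for Cd74, with standard errors of 0.12 to 0.18. The adjusted p ran from 7.48e-04 for H2-Aa to 2.03e-03 for H2-DMb1, and all 6 calls were kept under each of the 16 alternatives. Without SPM replicate 2 the log2 fold changes were -1.20, -1.36, -1.18, -1.15, -1.35 and -1.23 in the same order of genes.

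Ciita and Ctss were not called in SPM compared to CK. Ciita had a log2 fold change of -1.14 ± 0.38 (adjusted p = 0.0544), with every SPM library below every CK library, and -0.96 (adjusted p = 0.234) without SPM replicate 2. Ctss had a log2 fold change of 0.05 (95% interval -0.30 to 0.40, adjusted p = 0.852), or 0.04 without SPM replicate 2, and its SPM libraries spanned the whole CK range of 34.7 to 41.4. Over the 8 genes the median log2 fold change was -1.20, beside 0.00 over all genes (0.00215).

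**Figure D2:**
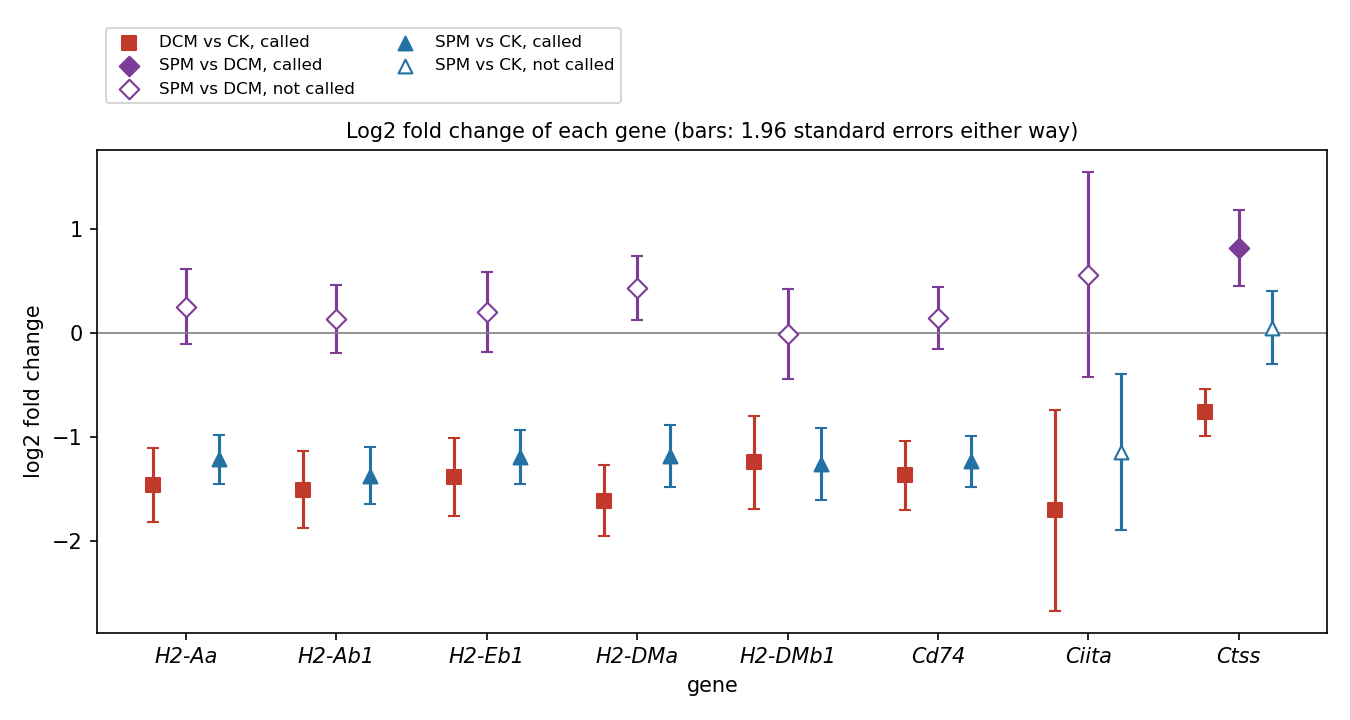
Log2 fold change (y axis) of each of the 8 genes in DCM compared to CK, SPM compared to DCM and SPM compared to CK, with bars for the 95% interval, filled symbols for called genes and open symbols for the others. The changes of DCM and of SPM against CK lie side by side between -1.18 and -1.70 for every gene but Ctss and, in SPM compared to CK, Ciita at -1.14.

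Levels of different genes were compared on the deposited FPKM values, which are scaled by gene length. In CK the mean was 264 ± 51.5 FPKM (SD, n = 3) for Cd74, above the classical chains at 165 ± 26.3 for H2-Aa, 164 ± 37.1 for H2-Ab1 and 153 ± 26.1 for H2-Eb1. The ranges of these 3 chains overlapped, whereas Cd74 lay above them in every CK library. Ctss followed at 29.3 ± 2.86 FPKM, then H2-DMa at 10.2 ± 2.17 and H2-DMb1 at 9.66 ± 2.37, whose ranges overlapped, and Ciita at 0.204 ± 0.0648. Messages for peptide loading and for the transactivator were thus measured far below those for the molecules they serve.

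The order was largely the same in the diabetic groups. In DCM the means were 96.1 FPKM for Cd74, 56.4 for H2-Aa, 55.0 for H2-Eb1, 54.4 for H2-Ab1, 16.2 for Ctss, 3.82 for H2-DMb1, 3.12 for H2-DMa and 0.0573 for Ciita. The range of Cd74 overlapped that of H2-Aa in DCM, although Cd74 was the higher of the pair in each library. In SPM they were 105 FPKM for Cd74, 66.6 for H2-Aa, 62.7 for H2-Eb1, 59.3 for H2-Ab1, 28.4 for Ctss, 4.20 for H2-DMa, 3.77 for H2-DMb1 and 0.0855 for Ciita. Neighbours with overlapping ranges were the classical chains among themselves and the pair of H2-M chains, in all 3 groups.

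Ratios between genes of the same library do not depend on its total. The ratio of H2-Aa to H2-Ab1 counts was 0.949 ± 0.0609 in CK, 0.966 ± 0.0698 in DCM and 1.05 ± 0.0373 in SPM (SD, n = 3), that of H2-Eb1 to H2-Ab1 was 0.916, 0.982 and 1.03, and that of Cd74 to H2-Ab1 was 1.88, 2.07 and 2.07. These 3 ratios overlapped between DCM and CK and between SPM and DCM. Between SPM and CK none of them overlapped (two-sided exact permutation p = 0.1 each, adjusted p = 0.225), with SPM higher by 1.11-, 1.12- and 1.099-fold. In that comparison the fold changes of all genes ran against GC content (Spearman correlation -0.37). Before GC correction the log2 fold changes were -1.21 for H2-Aa and -1.37 for H2-Ab1. After it they were -1.30 and -1.21, so that H2-Aa no longer stood above H2-Ab1. Those of H2-Eb1 (-1.11) and Cd74 (-1.08) stayed above that of H2-Ab1. The ratio of H2-DMb1 to H2-DMa was 0.852 ± 0.0265 in CK, 1.10 ± 0.279 in DCM and 0.816 ± 0.122 in SPM, and its ranges overlapped in each comparison.

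The ratio of Ctss to Cd74 did not overlap between any of the 3 groups. It was 0.0968, 0.109 and 0.117 in CK, 0.147, 0.184 and 0.165 in DCM, and 0.305, 0.263 and 0.201 in SPM. Relative to the RNA of its substrate, that of the protease stood higher in every DCM library than in every CK library and higher again in every SPM library. After correction for GC content, which is 46.0% in Ctss and 56.6% in Cd74, the log2 fold changes in SPM compared to DCM were 0.68 for Ctss and 0.29 for Cd74, against 0.82 and 0.14 before it. Each of the 3 comparisons of the ratio, without that correction, gave p = 0.1 in a two-sided exact permutation test, the smallest p that 3 against 3 libraries allow, and the smallest adjusted p over the 36 ratio tests was 0.225.

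Ratios to macrophage genes set H2-Ab1 beside markers of cells that carry class II molecules. The ratio of H2-Ab1 to Csf1r, the receptor for macrophage colony-stimulating factor, was 1.59, 1.31 and 1.47 in CK, 0.883, 0.630 and 0.617 in DCM, and 0.648, 0.666 and 0.715 in SPM. Both diabetic groups lay below CK without overlap (exact permutation p = 0.1 each, adjusted p = 0.225), whereas SPM and DCM overlapped (exact permutation p = 1). The ratio of H2-Ab1 to C1qa, a complement gene of macrophages, measured 2.07 ± 0.228 in CK, 1.03 ± 0.170 in DCM and 0.727 ± 0.177 in SPM. For both ratios every DCM and every SPM library lay below every CK library. SPM and DCM overlapped for the ratio to C1qa (exact permutation p = 0.2, adjusted p = 0.3). The ratio of H2-Ab1 to Ptprc, the pan-leukocyte gene CD45, was 17.3 ± 3.25 in CK and 5.70 ± 0.0929 in SPM, and at 10.9, 20.7 and 8.30 in DCM it overlapped CK, with DCM replicate 2 above every other library. These ratios were not corrected for GC content, which is 57.3% in H2-Ab1. With that correction the log2 fold change of H2-Ab1 in SPM compared to CK was -1.21, against -1.37 before it.

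**Figure D3:**
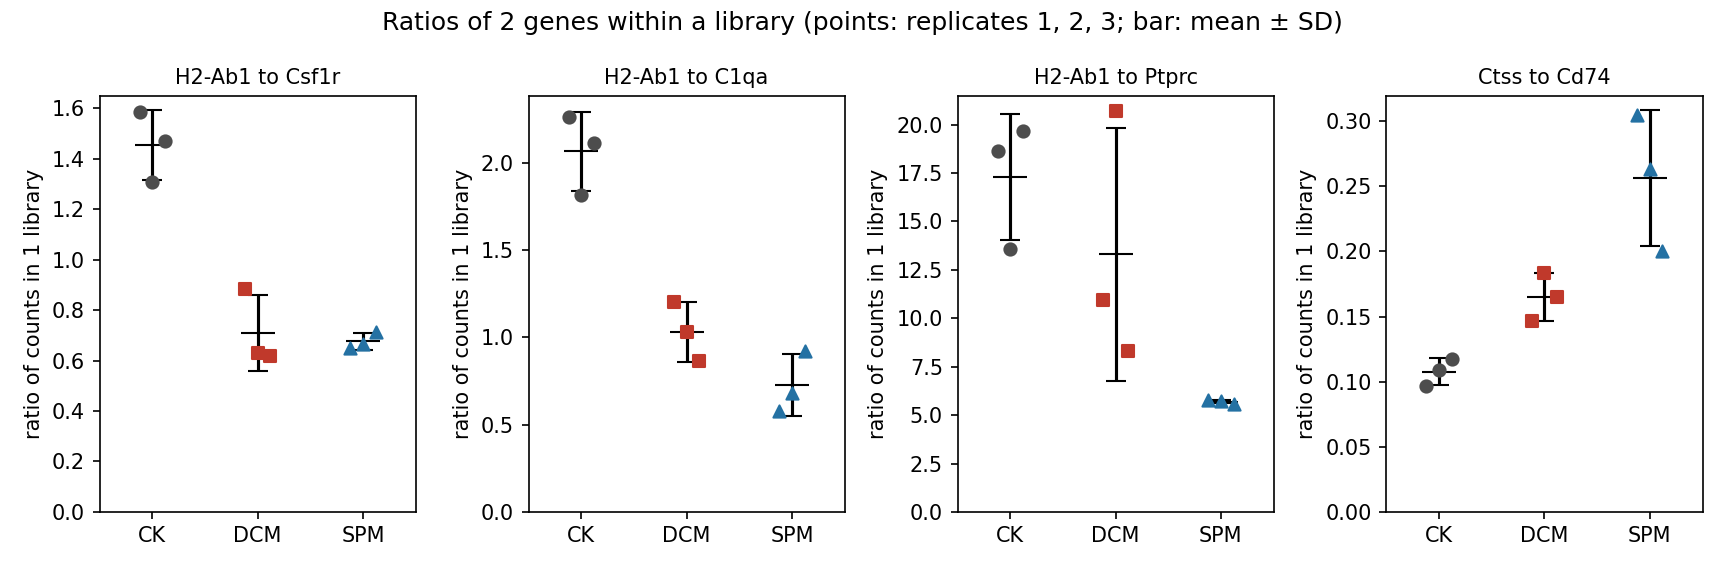
Ratios of the counts of H2-Ab1 to Csf1r, C1qa and Ptprc and of Ctss to Cd74 within each library (y axes from 0), with replicates 1 to 3 as points from left to right and the mean ± SD as bars. H2-Ab1 to Csf1r is below 0.9 in all DCM and SPM libraries and above 1.3 in all CK libraries, and Ctss to Cd74 is ordered CK, DCM, SPM without overlap.

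The further class II genes were measured at low levels. H2-DMb2, H2-Ob and H2-Eb2 had log2 fold changes of -1.31, -1.24 and -1.43 in DCM compared to CK, but none of the 3 was called in any comparison. In DCM compared to CK 2 of them were called lower with DESeq2, with no filter on low counts or without CK replicate 3, and in SPM compared to CK 2 with DESeq2 or without CK replicate 3 and 1 with no filter or without SPM replicate 3. H2-Ob, a chain of the H2-O molecule that restrains H2-M in B cells, stood at 4.97, 4.27 and 1.43 normalised CPM in CK, at 2.32, 0.644 and 1.496 in DCM and at 0.947, 1.19 and 2.02 in SPM. CK replicate 3 lay inside the DCM range for H2-Ob, unlike for the 8 genes above. H2-Ea-ps was at or near 0, with 0.0321 normalised CPM as its highest value.

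Of 10 proteases and other factors of lysosomal processing, 9 were tested and none was called in DCM compared to CK, with a median log2 fold change of -0.10. The most abundant, Cst3, Ctsb and Ctsd, which encode cystatin C and cathepsins B and D, had log2 fold changes of 0.05, -0.18 and 0.31. Ctsc, which encodes cathepsin C, stood at 51.2, 53.6 and 54.6 normalised CPM in CK, at 35.8, 35.1 and 37.8 in DCM and at 65.1, 51.8 and 46.4 in SPM. Like Ctss it was lowest in DCM without overlap, but its log2 fold change of -0.56 to CK (adjusted p = 5.18e-04) was under the fold-change limit. In SPM compared to DCM it was upregulated by 0.60 on the log2 scale (adjusted p = 0.0132). The call for Ctsc was lost without DCM replicate 1 (0.58), DCM replicate 2 (0.58), SPM replicate 1 (0.44) or SPM replicate 2 (0.63), in the fit with the replicate number as a block (0.58), with limma (0.57) and after GC correction (0.29).

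Among the 7 factors that bind class II promoters (Rfx5, Rfxap, Rfxank, Nfya, Nfyb, Nfyc and Creb1), none was called in any comparison under any alternative at a fold change of 1.5. Their median log2 fold change was 0.09 between DCM and CK, 0.05 between SPM and DCM, and 0.09 between SPM and CK. Nfyc, a subunit of the Y box factor NF-Y, stood at 47.4 to 53.8 normalised CPM in CK, 53.2 to 53.5 in DCM and, in SPM, 50.8 to 60.2. The call for Ciita between DCM and CK came after a filter passed through its CK libraries and rested on single libraries, as given above. It is therefore not set against the values of these factors.

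On the route from interferon gamma to Ciita, Spi1, which encodes the myeloid factor PU.1, was called lower in DCM compared to CK, with a log2 fold change of -0.72 ± 0.18 (adjusted p = 0.0230). The call was lost without CK replicate 1 (-0.45), DCM replicate 1 (-0.76), DCM replicate 2 (-0.73) or DCM replicate 3 (-0.67). Spi1 was called higher in SPM compared to DCM (0.66, adjusted p = 0.0230), a call lost without DCM replicate 1 (0.69), DCM replicate 2 (0.67), DCM replicate 3 (0.60), SPM replicate 1 (0.46) or SPM replicate 2 (0.68). The most abundant of the route, Jak1 and Ifngr2, a kinase and a chain of the interferon gamma receptor, had log2 fold changes of -0.35 (adjusted p = 8.41e-03) and -0.55 (adjusted p = 5.48e-04) in DCM compared to CK, under the fold-change limit. Ifngr1, the other receptor chain and next in level, had a log2 fold change of -0.15 in DCM compared to CK (edgeR adjusted p = 0.288). In SPM compared to DCM that of Ifngr1 was 0.31 (edgeR adjusted p = 0.0301), also under the fold-change limit. Ifng itself, the gene of interferon gamma, was at 0 in all libraries but CK replicate 2, where it stood at 0.0279 normalised CPM.

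Of the genes of class II turnover, Cd83, which stabilises class II at the cell surface, was downregulated in all 3 comparisons, with log2 fold changes of -0.60 in DCM compared to CK, -0.65 in SPM compared to DCM and -1.26 in SPM compared to CK. The last of these was kept under each alternative. The first was lost without CK replicates 1 (-0.53) or 2 (-0.57), DCM replicate 2 (-0.48) and after GC correction (-0.56), and the second without DCM replicate 1 (-0.55), DCM replicate 2 (-0.77), DCM replicate 3 (-0.65), SPM replicate 1 (-0.54) or SPM replicate 2 (-0.68) and after GC correction (-0.61). March1, the ubiquitin ligase that sends class II for degradation, was upregulated in SPM compared to DCM (1.16, adjusted p = 0.0331) and to CK (0.92, adjusted p = 0.0256). Without SPM replicate 2 neither March1 call was kept (1.12 and 0.87), nor without DCM replicates 2 (0.91) or 3 (1.04) in the first and CK replicates 2 (0.87) or 3 (0.74) or SPM replicate 1 (0.84) in the second. After GC correction the March1 values were 0.85 (adjusted p = 0.110) and 0.61 (adjusted p = 0.158), so that neither was called. The first was also lost with limma (1.10) and the second in 1 fit of all 9 libraries (0.93). None of the 5 genes of costimulation and coreceptors was called, including Cd86 and Cd40.

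Of the 7 other genes of the class II region, Psmb8, a subunit of the immunoproteasome, was downregulated in DCM compared to CK (log2 fold change -0.69, adjusted p = 0.0200) and in SPM compared to CK (-0.68, adjusted p = 0.0163). The first call was lost without CK replicate 1 (-0.51), DCM replicate 2 (-0.65) or DCM replicate 3 (-0.68), and the second without CK replicate 1 (-0.51) or SPM replicate 2 (-0.64). Brd2, which overlaps H2-DMa, stood at 154 to 161 normalised CPM in CK and 156 to 170 in DCM, with a log2 fold change of 0.05, and was not called. Notch4 and Tap1, the next most abundant, had log2 fold changes of -0.02 and -0.70 in DCM compared to CK and were not called.

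In bulk RNA, fewer antigen-presenting cells and less class II RNA per cell cannot be told apart. The markers of these cells are therefore given beside the class II genes. The summed level of the 8 genes was 818.8 to 1157 normalised CPM in CK, 304.5 to 495.2 in DCM and, in SPM, 382 to 479. For 14 macrophage markers the sum was 504 to 652 in CK, 454 to 522 in DCM and, in SPM, 546 to 845. In DCM compared to CK, 11 of 14 had a negative log2 fold change, and 2 were called lower, Adgre1 (-0.93), which encodes F4/80, and Fcgr1 (-1.17), an Fc receptor. Lyve1, a marker of resident macrophages and lymphatic endothelium, was called higher (0.90), and the list median was -0.36. These 3 calls were kept under each of the 16 alternatives.

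All 14 macrophage markers had a positive log2 fold change in SPM compared to DCM, with a median of 0.63, and 7 were called higher, Adgre1 (1.15), C1qa (0.73), C1qb (0.65), C1qc (0.63), Mrc1 (0.64), Lyve1 (0.68) and Ccr2 (1.24). The count of 7 fell to 1, Lyve1, without SPM replicate 2, DCM replicate 1 or DCM replicate 2. It fell to 3 without DCM replicate 3 or SPM replicate 1 or after GC correction, where Lyve1 lost its call (0.54). C1qa, C1qb and C1qc were also not called with DESeq2 (adjusted p = 0.0502, 0.0919 and 0.0730) or with limma. In the same comparison H2-Aa, H2-Ab1, H2-Eb1 and Cd74 were not called. Of the pan-leukocyte markers 4 of 7 tested were called lower in DCM compared to CK (Coro1a, Laptm5, Cd53 and Cd52, median -0.69), or 1 without CK replicate 1 or DCM replicate 2 and 2 without CK replicate 2. Between SPM and DCM 4 were called higher (Ptprc, Coro1a, Cd53 and Cd52, median 0.72), or 0 without SPM replicate 2, 1 without DCM replicate 2 or 3 and 2 without SPM replicate 1. After GC correction none of these 4 was called (adjusted p = 0.0571 to 0.0801), and in SPM compared to CK none was called.

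Dendritic cell and B cell markers were sparse. The 10 dendritic cell markers summed to 49.4 to 60.0 normalised CPM in CK, 42.8 to 50.3 in DCM and, in SPM, 44.9 to 46.6, of which Zbtb46, also expressed by endothelium, made up the larger share at 20.8 to 37.6. None was called in DCM compared to CK, where the list median was -0.72. Xcr1, a receptor of cross-presenting dendritic cells, Ccr7 (-1.35) and Batf3 (-1.19) were called lower and Clec9a (0.72) higher in SPM compared to CK, and none of these calls was kept without SPM replicate 2 (-1.30, -1.12 and 0.77 for the last 3). Xcr1 stood at 0.574, 0.782 and 0.649 normalised CPM in CK and at 0.153, 0.0321 and 0.0325 in SPM, passed the filter on low counts in that comparison through its CK libraries and was not tested in SPM compared to DCM, so no fold change is given for it. The count of 3 called lower was 1 without CK replicate 2. The call for Clec9a was also lost without CK replicate 1 (0.58), CK replicate 2 (0.70), SPM replicate 1 (0.73) or SPM replicate 3 (0.65). It was further lost with limma (0.57) and after GC correction (0.57). The call for Batf3 was also lost without CK replicate 3 (-1.03) or SPM replicate 3 (-1.06), with the replicate block (-1.20) and after GC correction (-1.01). That for Ccr7 was also lost without CK replicate 1 (-0.97) or SPM replicate 1 (-1.27).

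The 7 B cell markers with a row summed to 12.4 to 33.5 normalised CPM in CK, 7.42 to 17.5 in DCM and, in SPM, 7.94 to 13.6. All 7 had a negative log2 fold change in DCM compared to CK, with a median of -1.35, but none was called and the group sums overlapped. With no filter on low counts 4 were called lower, and 2 without CK replicate 3 or DCM replicate 1. Cd79b, part of the B cell receptor, stood at 6.21, 4.38 and 1.88 in CK and at 2.45, 0.746 and 0.998 in DCM. Between SPM and CK the median was -1.66, and Cd79b (-1.73), Pax5 (-1.66) and Fcmr (-1.95) were called lower, a count of 3 that fell to 1, Cd79b, without SPM replicate 2, CK replicate 1 or CK replicate 2 and was 6 without CK replicate 3 and 5 with no filter on low counts. Of the T cell markers, Lck, a kinase of the T cell receptor, was called lower in DCM compared to CK (-1.54) and in SPM compared to CK (-1.21), and both calls were lost without CK replicate 1 (-1.13 and -0.81). The first was also lost without CK replicate 2 (-1.74), DCM replicate 2 (-1.19) or DCM replicate 3 (-1.60). The second was also lost without CK replicate 3 (-1.36), SPM replicate 1 (-1.03) or SPM replicate 2 (-1.16). It was further lost in 1 fit of all 9 libraries (-1.21), with the replicate block (-1.17) and after GC correction (-1.09). The part of these cell types in the class II result was not tested.

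**Figure D4:**
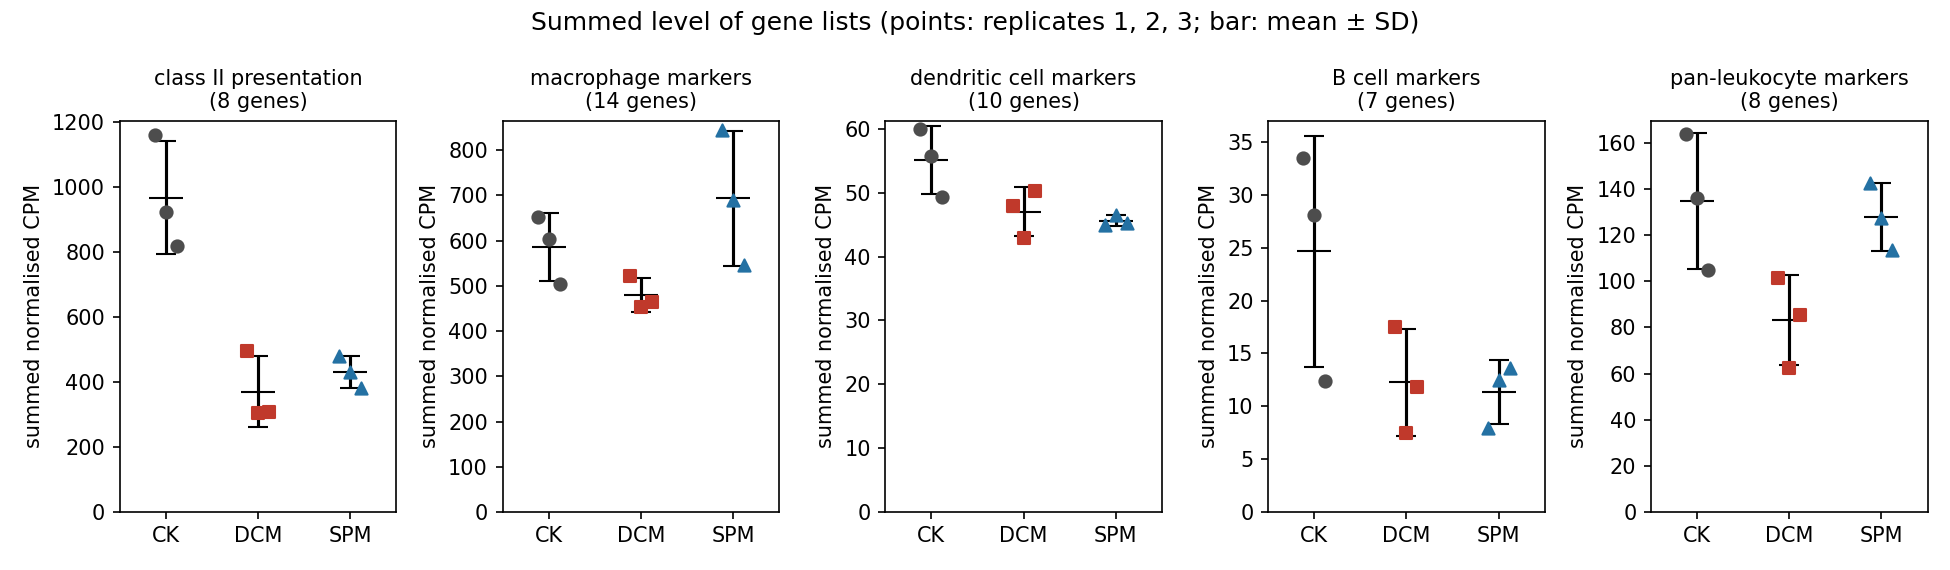
Summed normalised CPM (y axes from 0, one scale per panel) of the 8 class II presentation genes and of the macrophage, dendritic cell, B cell and pan-leukocyte markers in the CK, DCM and SPM libraries, with replicates 1 to 3 as points from left to right and the mean ± SD as bars. The class II sum is separated between CK and both diabetic groups, whereas the macrophage sum in SPM (546 to 845) reaches above that of CK (504 to 652).

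The genes most like the class II genes in profile were sought among 14901 other genes, by the root mean square difference of centred log2 CPM over the 9 libraries. The median gene differed from the members' mean profile by 0.677 on the log2 scale, and the members themselves by 0.0762 for H2-Eb1 to 0.472 for Ctss. The nearest gene, Psd4, differed by 0.207 and stood at 2.92 to 5.13 normalised CPM in CK, 1.19 to 2.25 in DCM and, in SPM, 2.08 to 3.15. Ighm, the immunoglobulin mu heavy chain, followed at 0.218 and stood at 47.5, 37.3 and 23.6 in CK, at 22.9, 14.2 and 14.4 in DCM and at 21.8, 21.5 and 20.6 in SPM. The next were Cd96 (0.221), Il21r (0.223), Clec7a (0.224), which encodes the pattern receptor dectin-1, Cdca8 (0.227), Ptafr (0.235), the receptor of platelet-activating factor, and Neurl3 (0.245). Of the 8 nearest genes, all but Cd96 and Cdca8 were called lower in DCM compared to CK, and none was called in SPM compared to DCM, where Cd96 was not tested. The 8 genes were chosen by their profile over these same libraries, so their calls largely follow from that choice and are no separate result. These similarities describe 9 libraries in 3 groups and carry no test.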

How the data were processed

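The authors deposited whole-number counts per gene and FPKM values per library. FPKM equalled the count divided by a gene length and by the library total, with a largest relative deviation of 6.84e-13. Per the study's methods reads were filtered with fastp 0.18.0. The submitters' processing notes name Bowtie 0.12.2 and the builds mm8 and mm9 without a role, and no source used here gives the counting tool or its annotation. Libraries were assigned to groups by title. Of 22851 identifiers, 22820 were matched to GENCODE M21 symbols.

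The groups were compared in pairs on counts with edgeR 4.0.16 (R 4.3.3; filterByExpr, TMM, quasi-likelihood test), with Benjamini-Hochberg adjustment over all genes, an adjusted p limit of 0.05 and a fold-change limit of 1.5. The steps were tested on simulated data. A standard error is the size of the log2 fold change divided by the square root of F, and 95% intervals are its normal limits. Ratios were compared by two-sided exact permutation tests in scipy 1.17.1. FPKM served only to compare levels between genes and for limma.

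The genes and lists were chosen with earlier results of these data known. The genes named were the 8 members, called genes of the lists or else the 3 most abundant of a list, and the 8 nearest in profile. Ifng and H2-Ea-ps were named outside this rule, after their values were seen, as were, without values, the other promoter factors and genes that overlap a member or share its motifs. The alternatives were a fold change of 1.3 or no limit, DESeq2 1.42.0, RLE scaling, no filter, a minimum of 1 CPM in 3 libraries, 1 fit of all 9 libraries, the replicate number as a block, limma 3.58.1 on log2 of FPKM plus 0.1, a correction for GC content (lowess span 0.3) and each library left out. The looser fold-change limits reuse the main fit, so that a call cannot be lost and a direction cannot turn under them. Counts over the lists under the alternatives were added after seeing the data. The interferon gamma route is reported in part, since 1 of its results is not reported here.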

Additional observations from a re-analysis of the deposited data

How the results depend on the processing

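Of the class II results, the direction and the call were the same in 121 of 127 member values for DCM compared to CK. They were the same in 116 of 127 for SPM compared to DCM and 123 of 127 for SPM compared to CK. These values include the looser fold-change limits, under which no direction can turn and no call can be lost. In SPM compared to DCM, H2-DMb1 turned from a log2 fold change of -0.01 to 0.033 with the replicate block, 0.035 with limma, 0.082 after GC correction and as far as 0.31 without 1 library (range -0.18 to 0.31), and H2-Ab1 turned to -0.021 without DCM replicate 3 (range -0.021 to 0.41 without 1 library). In SPM compared to CK, Ctss turned from 0.05 to -0.081 with limma, -0.048 after GC correction, and -0.16 and -0.01 without SPM replicate 1 and CK replicate 3 (range -0.16 to 0.25). The number of the 8 genes called in SPM compared to DCM was 0 after GC correction and 0 to 1 without 1 library. It was 0 without DCM replicate 2, DCM replicate 3 or SPM replicate 2. None of the turned values was called, and the cause was not tested.

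Over all genes, 625 were called in DCM compared to CK, 1100 at a fold change of 1.3 and 1497 with no limit. In SPM compared to DCM 521 were called, 1299 and 2410 under these limits, 134 after GC correction, and 280, 73, 56 and 791 when DCM replicate 1, DCM replicate 2, SPM replicate 2 or SPM replicate 3 was left out. In SPM compared to CK 1342 were called, 2532 and 3989 under these limits, and 771 without SPM replicate 2.

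Deviations of libraries with the same replicate number had correlations of -0.0746 to 0.205, against -0.284 to 0.217 for other numbers. For 0 of 9 libraries was its own number the best match in both other groups at once. CK replicate 3 and SPM replicate 3 did correlate best with each other (0.205). With the replicate number as a block 8, 1 and 6 of the 8 genes were called in the 3 comparisons, as without it, and 568, 610 and 1282 genes in all. Depth limits Ciita most, at 6 to 50 counts per library. Intervals of fold changes cover the spread of the 3 deposited libraries per group. Whether SPM replicate 2 is independent of SPM replicates 1 and 3 could not be settled. If it is not, the intervals and SDs that include SPM are too narrow and the p-values too small.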
